A study of Mus musculus with 10 samples.

Results

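The prostaglandin synthesis enzymes and receptors described here are 10 genes out of 55450 in a gene count table of mouse corneal endothelium. They are the cyclooxygenases Ptgs1 and Ptgs2, the terminal synthases Ptges and Ptgds, the inactivating enzyme Hpgd, the prostaglandin E receptors Ptger1, Ptger2, Ptger3 and Ptger4, and the prostaglandin F receptor Ptgfr. The genes were chosen by name, with their measured values in KO and WT libraries already known. Their differences between genotypes are therefore given as a description, without p-values, and nothing is supported with them. In KO corneas the Ptger3 transcript stood at 0.295 times its WT level and the Ptgfr transcript at 2.86 times its WT level, while Ptges, the most abundant of the 10 genes per length in both genotypes, lay within its WT range in 4 of 5 KO libraries.

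The study compared Slc4a11-/- (KO) with Slc4a11+/+ (WT) mice of the C57BL/6 strain at 12 weeks of age. Slc4a11 encodes a membrane transporter of the corneal endothelium, and its loss in people underlies a congenital corneal endothelial dystrophy. Each genotype had 5 libraries, and each library was made from 6 peelings of 3 animals, pooled. A library is therefore a pool, the spread between animals inside a pool was not measured, and an adjusted p measures the spread between these pools only. The labels give no construction details of the deleted allele, no sex and no day of collection, and both genotypes carry no other labelled allele or treatment.

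Prostaglandins are made from arachidonic acid that phospholipases release from membranes. A cyclooxygenase turns it into prostaglandin H, which terminal synthases convert to the prostaglandins E, D, F and I and to thromboxane. Each of these acts on G protein-coupled receptors on the same or neighbouring cells before it is carried into cells and inactivated. In the eye, prostaglandin F receptor agonists lower intraocular pressure, and corneal endothelial cells are known to make prostaglandin E.

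Library totals ran from 36026193 counts in KO 4 to 51008996 counts in WT 5. Slc4a11 itself had 70.1 to 114 CPM (read counts scaled to a common library size) in KO libraries, against 3489 to 4357 CPM in WT libraries, which is 39.7-fold lower in KO. Corneal endothelial markers had a summed level of 21651 to 26021 CPM in KO libraries, against 21595 to 24988 CPM in WT libraries. Keratocyte markers, from the adjoining stroma, summed to 59629 to 80260 CPM in KO libraries, against 57941 to 89400 CPM in WT libraries, so the peelings were not endothelium alone. All 10 endothelial markers were tested, and 1 of them was called, in the lower direction. Epithelial markers summed to 1779, 555, 42.2, 200 and 3428 CPM in KO 1 to KO 5, against 46.5 to 178 CPM in WT libraries. KO 1, KO 2 and KO 5 thus stood apart from all other libraries in epithelial RNA, and 10 of the 12 epithelial markers were called higher. Only KO 3 and KO 4 among KO libraries lie near the WT range. Values from these 2 libraries alone are therefore given wherever they change a result, except where the text says otherwise. Schwann cell markers summed to 79.5 to 113 CPM in KO libraries, against 56.7 to 64.9 CPM in WT libraries, with 4 of 5 called higher, and lens markers, of which Lim2 was at 0 throughout, to 10.5 to 15.9 CPM in KO libraries, against 7.75 to 10.2 CPM in WT libraries, with 2 of 4 tested called higher. Their part in the differences below was not tested. Macrophage markers overlapped, at 247 to 370.4 CPM in KO libraries and 201 to 329 CPM in WT libraries. In these bulk samples fewer cells of a type and less RNA per cell cannot be told apart.

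The starts of the receptor genes that differed most between genotypes, and that of the inducible cyclooxygenase Ptgs2, are shown here because the values of these 3 genes carry most of what follows. The windows are from RefSeq on GRCm38.p6, 250 bases before to 50 bases after each annotated start, printed 5′ to 3′ on the gene's own strand. Capitals mark matches, on either strand, to 6 motifs: the CRE core TGACG, the E-box CACGTG, the AP-1 site TGANTCA, the GC box GGGCGG, the CCAAT box CCAAT and the TATA box TATAAA.
Ptger3, chr3:157566626-157566925, plus strand: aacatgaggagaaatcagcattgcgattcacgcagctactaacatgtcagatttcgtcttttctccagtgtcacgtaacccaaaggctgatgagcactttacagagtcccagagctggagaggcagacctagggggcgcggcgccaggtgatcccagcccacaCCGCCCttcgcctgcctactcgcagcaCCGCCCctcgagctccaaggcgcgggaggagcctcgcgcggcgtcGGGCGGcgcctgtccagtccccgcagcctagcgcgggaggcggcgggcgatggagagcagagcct
Ptgfr, chr3:151837479-151837778, minus strand: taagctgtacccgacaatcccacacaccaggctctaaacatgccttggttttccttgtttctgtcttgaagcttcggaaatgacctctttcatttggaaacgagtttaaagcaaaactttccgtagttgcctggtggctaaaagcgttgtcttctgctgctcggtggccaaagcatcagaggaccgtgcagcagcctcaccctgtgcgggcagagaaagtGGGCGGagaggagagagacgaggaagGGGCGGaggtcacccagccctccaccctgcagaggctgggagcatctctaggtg
Ptgs2, chr1:150099781-150100080, plus strand: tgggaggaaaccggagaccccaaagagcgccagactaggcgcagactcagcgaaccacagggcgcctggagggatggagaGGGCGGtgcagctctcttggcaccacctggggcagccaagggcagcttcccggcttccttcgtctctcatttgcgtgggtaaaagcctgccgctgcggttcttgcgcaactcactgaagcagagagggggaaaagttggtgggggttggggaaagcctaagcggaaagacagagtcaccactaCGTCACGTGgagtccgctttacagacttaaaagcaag

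The Ptger3 window held 3 GC boxes, with first bases at -87, -60 and -15 from the start, and the Ptgfr window held 2, at -30 and -4. Neither held any of the other 5 motifs, so the receptor genes that moved in opposite directions had the same kind of motif in these windows. The Ptgs2 window held 1 GC box at -170, and just after the annotated start a CRE core at 13 that overlaps an E-box at 16. Positions are counted from the annotated start, and where transcription begins in these samples was not measured. A GC box occurs in 35.7% of the 32851 windows in the table, a CRE core in 20.8% and an E-box in 7.15%. A match is only a description of the letters. The gene annotation used for the gene positions below places the start of Ptgfr further upstream, at 151837630 on the minus strand. Both Ptgfr GC boxes lie inside that annotated gene. Of the 10 genes, 9 have a window in the table. The other windows held 2 GC boxes for Ptges, 4 GC boxes and 1 CCAAT box for Ptger4, 1 GC box and 1 TATA box for Hpgd, 1 AP-1 site for Ptgds, 1 CCAAT box for Ptger2 and no match for Ptgs1. The AP-1 site, CCAAT box and TATA box occur in 7.81%, 37.4% and 13.6% of all windows. The GC content was 64% for Ptger3, 54.33% for Ptgfr and 59.33% for Ptgs2, against a median of 52.67% over all windows.

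Of the 10 genes, 9 had enough reads to be tested, and Ptger2 did not. In the edgeR quasi-likelihood test over all 17729 tested genes, 4 of the 9 were called at an adjusted p under 0.05, where 15.3% of all tested genes were called. Of these 4, 3 were lower in KO (Ptgs1, Ptgds and Ptger3), a direction in which 7.73% of all tested genes were called, and 1 was higher (Ptgfr), a direction in which 7.59% were. The KO and WT libraries did not overlap for 3 genes, Ptgs1, Ptger3 and Ptgfr, while 12.0% of all tested genes had no overlap. Over all tested genes 1346 were called higher and 1370 lower, and with total counts as the only scaling 1555 higher and 1054 lower. Since the genes were picked from the same contrast, nothing is read from these counts.

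**Figure D1:**
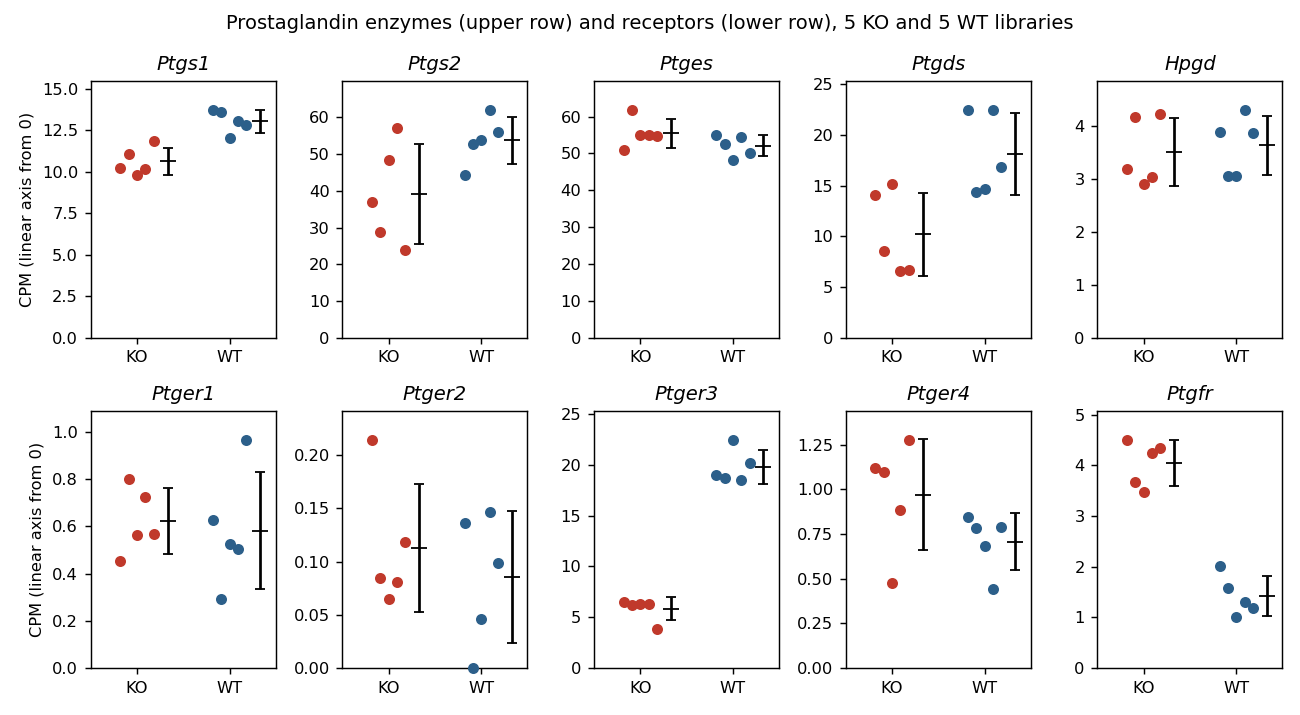
CPM (linear axis from 0) of the 10 genes, 1 panel a gene, in 5 KO libraries (red, left) and 5 WT libraries (blue, right), points in replicate order, with the mean and SD in black. Ptger3 sits between 3.79 and 6.53 CPM in KO libraries, below all WT libraries, and Ptgfr between 3.48 and 4.51 CPM, above all WT libraries.

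The cyclooxygenases carry out the committed step of prostaglandin synthesis. Ptgs1 (ENSMUSG00000047250.13, chr2:36230426-36252272, plus strand), the cyclooxygenase usually described as constitutive, had 10.2, 11.1, 9.78, 10.1 and 11.8 CPM in KO 1 to KO 5, against 13.7, 13.6, 12.0, 13.1 and 12.8 CPM in WT 1 to WT 5. Every KO library was below every WT library, though KO 5 and WT 3 were close. The log2 fold change of KO over WT was -0.30 ± 0.07 (SE), 1.23-fold lower, and the gene was called. It was also called with any 1 library left out, at a log2 fold change between -0.34 and -0.27, and when only KO 3 and KO 4 stood for KO, at -0.38.

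Ptgs2 (chr1:150100031-150108227, plus strand), the cyclooxygenase induced by cytokines and injury, was the most variable of the synthesis genes among KO libraries next to Ptgds. It had 37.0, 28.9, 48.4, 57.1 and 24.0 CPM in KO 1 to KO 5, against 44.4, 52.7, 53.7, 62.1 and 55.9 CPM in WT 1 to WT 5. KO 1, KO 2 and KO 5 were below all WT libraries, and KO 3 and KO 4 lay inside the WT range, so the groups overlap. The coefficient of variation was 35.0% in KO libraries, against 11.9% in WT libraries. The log2 fold change was -0.46 ± 0.20 (SE) and the gene was not called. It was called without KO 4, at a log2 fold change of -0.64. The 3 low KO libraries are those with the most epithelial RNA, and when only KO 3 and KO 4 stood for KO the Ptgs2 log2 fold change was -0.02. With the mean log2 CPM of the epithelial markers as a covariate it was -0.16. The part of epithelial RNA in the Ptgs2 values was not tested further.

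**Figure D2:**
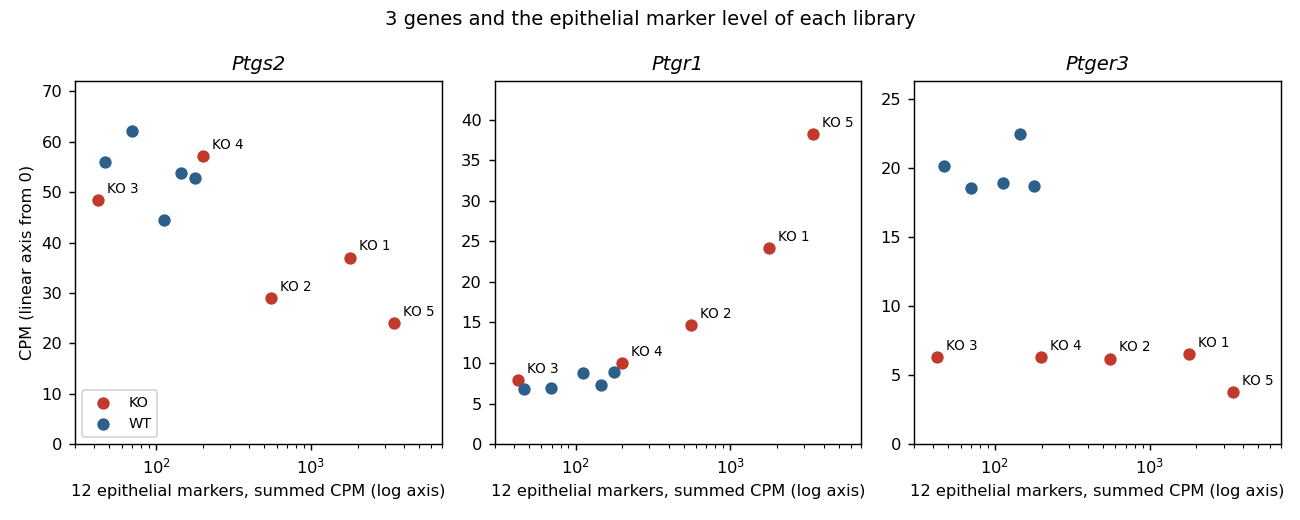
CPM of Ptgs2, Ptgr1 and Ptger3 (vertical axes, linear from 0) against the summed CPM of 12 epithelial markers (log axis) in 5 KO libraries (red, named) and 5 WT libraries (blue). Ptgs2 is lowest and Ptgr1 highest in KO 5, whose epithelial markers sum to 3428 CPM, while Ptger3 lies at 6.30 and 6.31 CPM in KO 3 and KO 4, whose markers sum to 42.2 and 200 CPM.

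The terminal synthases decide which prostaglandin is made. Ptges (chr2:30889471-30929863, minus strand), the microsomal prostaglandin E synthase that works with Ptgs2, had 50.9, 61.9, 54.9, 54.9 and 54.8 CPM in KO 1 to KO 5, against 55.0, 52.4, 48.2, 54.4 and 50.1 CPM in WT 1 to WT 5. KO 2 was above all other libraries, and the rest of the KO libraries lay within the WT range. Its log2 fold change was 0.09 ± 0.06 (SE) and it was not called, here or under any of the 23 alternative settings.

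Ptgds (chr2:25466709-25470046, minus strand) encodes the lipocalin-type prostaglandin D synthase, a secreted protein that also carries small lipophilic molecules. It had 14.1, 8.60, 15.1, 6.58 and 6.70 CPM in KO 1 to KO 5, against 22.4, 14.3, 14.6, 22.5 and 16.8 CPM in WT 1 to WT 5. KO 3 was above WT 2 and WT 3, so the groups overlap, and both groups were spread widely, with coefficients of variation of 40.1% in KO libraries and 22.4% in WT libraries. The log2 fold change was -0.83 ± 0.24 (SE), 1.77-fold lower, and the gene was called. That call was lost in 11 of 23 alternative settings, though the sign was negative in every one of them. It was lost without KO 2 (-0.77), KO 4 (-0.70), KO 5 (-0.70), WT 1 (-0.74), WT 3 (-0.90), WT 4 (-0.73) or WT 5 (-0.85), each alone. When only KO 3 and KO 4 stood for KO, its log2 fold change was -0.73 and it was not called.

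Hpgd (chr8:56294585-56321043, plus strand) encodes 15-hydroxyprostaglandin dehydrogenase, which starts the breakdown of prostaglandins. It had 3.19, 4.17, 2.91, 3.03 and 4.24 CPM in KO 1 to KO 5, against 3.90, 3.06, 3.05, 4.32 and 3.87 CPM in WT 1 to WT 5. The groups overlapped almost completely. Hpgd had a log2 fold change of -0.05 ± 0.15 (SE), and the gene was not called.

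Among the receptors, Ptger3 (ENSMUSG00000040016.16, chr3:157566892-157645888, plus strand) is the prostaglandin E receptor that mainly couples to inhibitory G proteins and lowers cyclic AMP. It had 6.53, 6.19, 6.30, 6.31 and 3.79 CPM in KO 1 to KO 5, against 19.0, 18.8, 22.5, 18.5 and 20.2 CPM in WT 1 to WT 5. Of the KO libraries, 4 lay within a narrow band and KO 5 lay below it, and the highest KO library was far below the lowest WT library. The log2 fold change was -1.76 ± 0.13 (SE), 3.40-fold lower. The gene was called in all 23 alternative settings, with log2 fold changes between -1.80 and -1.64. It was -1.64 both without KO 5 and when only KO 3 and KO 4 stood for KO. KO 5, the lowest at 3.79 CPM, had the most epithelial RNA, and KO 3 and KO 4, with the least among KO libraries, had 6.30 and 6.31 CPM. The part of epithelial RNA in the Ptger3 values was not tested.

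Ptgfr (chr3:151796502-151837630, minus strand), the prostaglandin F receptor, signals mainly through Gq and calcium. It had 4.51, 3.67, 3.48, 4.24 and 4.33 CPM in KO 1 to KO 5, against 2.02, 1.59, 1.00, 1.30 and 1.19 CPM in WT 1 to WT 5. The lowest KO library was above the highest WT library. These levels rest on 158 to 189 reads in KO libraries, against 44 to 74 reads in WT libraries. The log2 fold change was 1.52 ± 0.18 (SE), 2.86-fold higher, and the gene was called in all 23 alternative settings, with log2 fold changes between 1.38 and 1.67. An unclassified transcript on the opposite strand, Gm43618, shares 329 bases with Ptgfr exons, and reads of the pair could be mixed only if counting ignored strand, which is not known here.

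Ptgfr and Ptger3 lie 5.73 Mb apart on chromosome 3. Within 1 Mb of Ptger3, 2 of 9 other tested genes were called, 1 higher and 1 lower, and within 1 Mb of Ptgfr 5 of 12, 1 higher and 4 lower, beside 15.3% of all tested genes. The same counts were 3 of 10 around Ptgs2, all lower, 8 of 60 around Ptgds, 7 higher and 1 lower, and 4 of 15 around Ptger2, all lower. Around Ptges 5 of 45 were called, around Ptger1 3 of 35 and around Ptger4 1 of 10. The 12 tested neighbours of Ptgs1 and the 2 of Hpgd did not pass the threshold. Ptgs1, Ptges and Ptgds are on chromosome 2, as is the deleted Slc4a11, but 94.4, 99.8 and 105 Mb from it.

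The 3 other prostaglandin E receptors were scarce. Ptger4 (chr15:5206661-5244187, minus strand), which raises cyclic AMP, had 1.12, 1.10, 0.478, 0.886 and 1.28 CPM in KO 1 to KO 5, against 0.845, 0.782, 0.683, 0.440 and 0.790 CPM in WT 1 to WT 5. The groups overlap, since KO 3 was lower than all WT libraries but 1, and the log2 fold change of 0.46 ± 0.26 (SE) was not called. When only KO 3 and KO 4 stood for KO, it was -0.06. Its exons share 1015 bases with the opposite-strand pseudogene Gm15937.

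Ptger1 (chr8:83666678-83672753, plus strand), which signals through calcium, had 0.453, 0.801, 0.565, 0.725 and 0.568 CPM in KO 1 to KO 5, against 0.627, 0.291, 0.524, 0.503 and 0.968 CPM in WT 1 to WT 5. The groups overlap fully and the log2 fold change was 0.09 ± 0.29 (SE), not called. These levels rest on 19 to 38 reads in KO libraries, against 13 to 49 reads in WT libraries.

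Ptger2 (chr14:44988195-45003820, plus strand), the second receptor that raises cyclic AMP, had 9, 4, 3, 3 and 5 reads in KO 1 to KO 5, against 5, 0, 2, 7 and 5 reads in WT 1 to WT 5. The 0 in WT 2 allows up to 3 reads at that depth, for counting error only. The gene was at the limit of detection in both genotypes, and no difference could be seen at this depth.

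Levels of different genes can be compared only per length, here as TPM, in which read counts are divided by the summed exon length of each gene and scaled to a common total. In KO libraries the order was Ptges at 41.7 ± 2.70 TPM, Ptgs2 at 25.6 ± 10.1, Ptgds at 18.5 ± 8.03, Ptgs1 at 8.07 ± 0.435, Hpgd at 6.13 ± 0.847, Ptger3 at 3.04 ± 0.654, Ptgfr at 1.76 ± 0.197, Ptger4 at 0.427 ± 0.123, Ptger1 at 0.336 ± 0.0701 and Ptger2 at 0.0637 ± 0.0332 TPM (SD, n = 5). In WT libraries it was Ptges at 39.1 ± 1.27 TPM, Ptgs2 at 34.8 ± 4.39, Ptgds at 32.4 ± 6.57, Ptger3 at 10.3 ± 1.06, Ptgs1 at 9.93 ± 0.394, Hpgd at 6.39 ± 0.921, Ptgfr at 0.616 ± 0.159, Ptger1 at 0.317 ± 0.140, Ptger4 at 0.315 ± 0.0723 and Ptger2 at 0.0483 ± 0.0345 TPM (SD, n = 5). Ptger3 thus ranked 6 in KO libraries, below Hpgd, and 4 in WT libraries, beside Ptgs1. Neighbours in these orders whose library ranges overlapped in both genotypes were Ptges and Ptgs2, Ptgs2 and Ptgds, and Ptger4 and Ptger1. Ptger3 and Ptgfr overlapped in KO libraries only at their edges, at 1.92 and 1.94 TPM. Ptger3 and Ptgs1, and Ptgfr and Ptger1, overlapped in WT libraries. With the length of the longest transcript in place of the summed exons, Ptgds ranked above Ptgs2 in WT libraries.

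Across all 9 prostanoid receptor genes, the 5 above with the prostacyclin receptor Ptgir, the thromboxane receptor Tbxa2r and the prostaglandin D receptors Ptgdr and Ptgdr2, summed TPM was 15.6 ± 1.05 in KO libraries and 27.8 ± 1.28 in WT libraries (SD, n = 5 each). The ranges did not overlap, at 14.3 to 16.6 TPM in KO libraries and 25.7 to 29.1 TPM in WT libraries. Ptger3 made up 19.6% ± 5.05 of this sum in KO libraries, against 37.1% ± 4.21 in WT libraries (SD, n = 5 each). Ptgfr made up 11.3% ± 1.53 in KO libraries, against 2.22% ± 0.60 in WT libraries. Ptgir was the largest receptor in both, at 55.9% ± 5.53 in KO libraries and 53.8% ± 4.55 in WT libraries, with overlapping ranges. Ptger3 and Ptgfr were used by the choice of genes, so their shares, and the sum that holds them, are a description. Ptger3 alone had 3.04 TPM in KO libraries and 10.3 TPM in WT libraries.

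**Figure D3:**
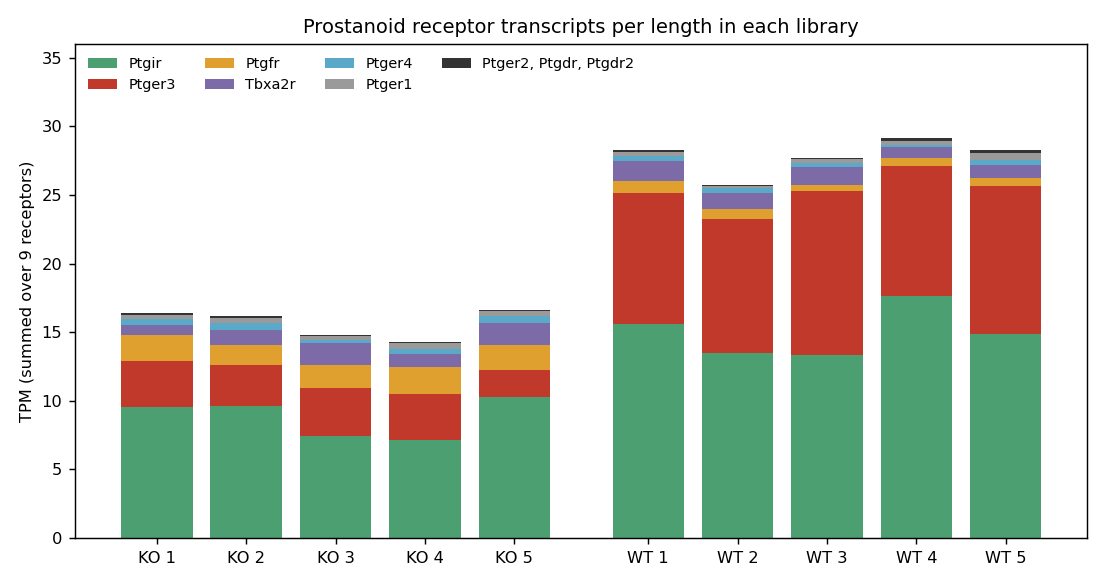
TPM summed over 9 prostanoid receptor genes (linear axis from 0) in each of 5 KO libraries (left) and 5 WT libraries (right), stacked by receptor. The KO bars end between 14.3 and 16.6 TPM, below all WT bars, with a smaller Ptger3 segment and a larger Ptgfr segment.

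Genes around these enzymes and receptors were taken from 8 lists of 133 genes, of which 108 were tested. Of these 108, 35 were called in the fit of all genes, 14 higher and 21 lower, which is 32.4% against 15.3% of all tested genes. With total counts as the only scaling 17 were called higher and 17 lower. Their median log2 fold change was -0.02, against 0.00 for all tested genes. With the epithelial marker level as a covariate 13 of them were called, and 15 were called when only KO 3 and KO 4 stood for KO. Between 18 (without WT 3) and 37 (without WT 1) were called when 1 library was left out, and 22 without KO 1 or without WT 5. The lists were chosen with earlier results of these data known, so these counts and the adjusted p values are a description and support nothing. Beside the counts of each list below, 7.59% of all tested genes were called higher and 7.73% lower. The adjusted p values below are from edgeR's quasi-likelihood test over all genes.

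**Figure D4:**
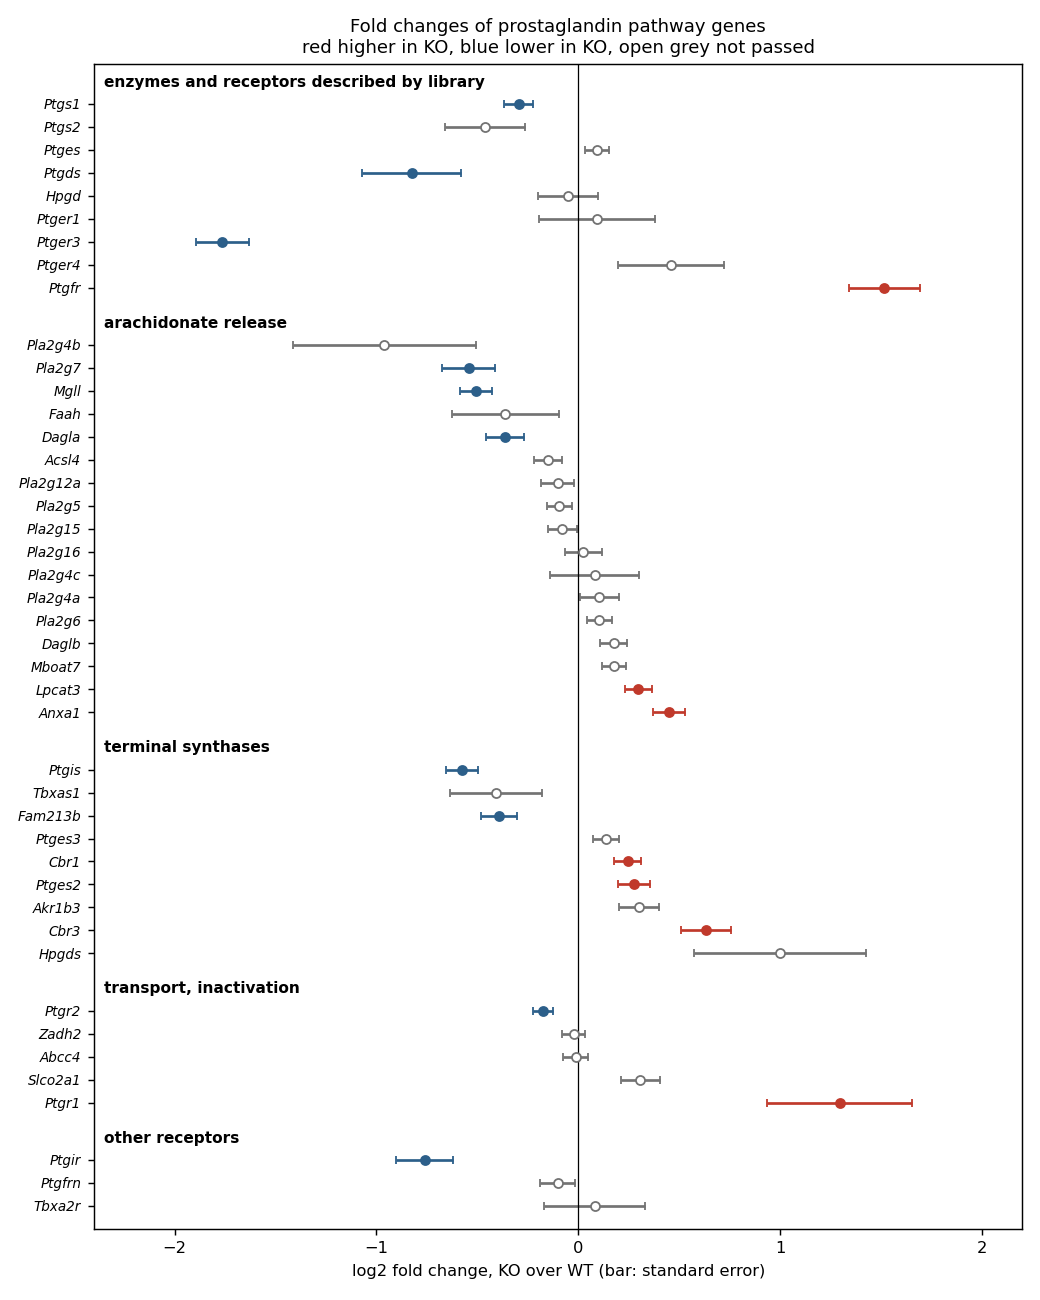
Log2 fold change of KO over WT with its standard error for the tested enzymes and receptors described by library and for tested genes of 4 of the 8 surrounding lists. Filled red points were called higher in KO, filled blue points lower, and open grey points were not called. Ptger3 at -1.76 and Ptgfr at 1.52 lie at opposite ends.

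Genes of arachidonate release were called in both directions, 2 higher and 3 lower of 17 tested, with a median log2 fold change of -0.08. Pla2g4a, the cytosolic phospholipase that supplies the cyclooxygenases, was not called, at a log2 fold change of 0.10 ± 0.10 (SE). Anxa1, a protein known to restrain phospholipase activity and inflammation, was 1.36-fold higher, with 303 to 409.7 CPM in KO libraries, against 245 to 281 CPM in WT libraries (adjusted p = 0.00305). Lpcat3, which puts arachidonate back into phospholipids, was 1.23-fold higher (adjusted p = 0.0130). Mgll, the monoacylglycerol lipase that frees arachidonate from an endocannabinoid, was 1.42-fold lower, with 33.2 to 40.6 CPM in KO libraries, against 43.8 to 57.2 CPM in WT libraries (adjusted p = 0.00154). Pla2g7, which hydrolyses platelet-activating factor, was 1.46-fold lower (adjusted p = 0.0171). The exons of Lpcat3, Mgll and Pla2g7 share 334, 167 and 319 bases with genes on the opposite strand. Anxa1, Lpcat3, Mgll and Pla2g7 kept their call and direction when any 1 library was left out, and with KO 3 and KO 4 alone as KO libraries.

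Of 9 other terminal synthase genes tested, 3 were called higher and 2 lower, with a median log2 fold change of 0.24. Ptgis, the prostacyclin synthase, had 165, 164, 165, 187 and 159 CPM in KO 1 to KO 5, against 277, 248, 208, 262 and 257 CPM in WT 1 to WT 5. All KO libraries were below all WT libraries, and the gene was 1.49-fold lower (adjusted p = 0.000583). An opposite-strand transcript shares 156 of its exon bases. Fam213b, a prostaglandin F synthase, was 1.31-fold lower (adjusted p = 0.0136), and was not called when only KO 3 and KO 4 stood for KO, at a log2 fold change of -0.35. Cbr3 and Cbr1 are carbonyl reductases, and Cbr1 is known to reduce prostaglandin E to prostaglandin F. Cbr3 was 1.55-fold higher (adjusted p = 0.00584). Cbr1 was 1.18-fold higher (adjusted p = 0.0290), a call lost without KO 3, KO 4, KO 5, WT 2 or WT 3, each alone, at log2 fold changes of 0.21 to 0.24. Hpgds, the prostaglandin D synthase of blood and mast cells, had 5.27, 3.31, 0.804, 1.21 and 4.81 CPM in KO 1 to KO 5, against 1.36 to 1.80 CPM in WT libraries, and was not called. It was high only in the 3 KO libraries that also had the most epithelial RNA. Mast cell markers, of which Fcer1a was at 0 throughout, summed to 0.630 to 5.71 CPM in KO libraries, against 0.545 to 1.10 CPM in WT libraries. Their part in the Hpgds values was not tested.

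The receptor of prostacyclin was lower together with its synthase. Ptgir, which raises cyclic AMP, had 10.9, 11.7, 7.78, 7.73 and 11.9 CPM in KO 1 to KO 5, against 18.2, 15.2, 14.7, 20.3 and 16.2 CPM in WT 1 to WT 5. All KO libraries were below all WT libraries, and the gene was 1.69-fold lower, with a log2 fold change of -0.76 ± 0.14 (SE, adjusted p = 0.00395). When only KO 3 and KO 4 stood for KO, its log2 fold change was -1.12, and that of Ptgis -0.50, both called. Vessel markers, of cells known to make prostacyclin, summed to 81.1 to 104 CPM in KO libraries, against 102 to 153 CPM in WT libraries, with 1 called higher and 1 lower of 5 tested. Their part in the Ptgis and Ptgir values was not tested. Of 3 other receptor genes tested, Ptgir was the 1 that was called. Tbxa2r had a log2 fold change of 0.08 ± 0.25 (SE), and Ptgfrn, a membrane protein known to associate with the prostaglandin F receptor, one of -0.10 ± 0.09 (SE).

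Of 5 transport and inactivation genes, 1 was called higher and 1 lower, with a median log2 fold change of -0.01. Ptgr1, which reduces the products of Hpgd further, had 24.2, 14.6, 7.91, 9.98 and 38.2 CPM in KO 1 to KO 5, against 8.78, 8.92, 7.31, 6.96 and 6.75 CPM in WT 1 to WT 5. It was 2.45-fold higher (adjusted p = 0.0305). Its order among KO libraries was that of their epithelial marker level, and the part of epithelial RNA in the Ptgr1 values was not tested. When only KO 3 and KO 4 stood for KO, its log2 fold change was 0.21, with the epithelial covariate 0.28, and neither was called. The call was also lost without KO 1, WT 2, WT 3, WT 4 or WT 5, each alone, at log2 fold changes of 1.20 to 1.35. Ptgr2, another reductase of this step, was 1.13-fold lower (adjusted p = 0.0350). That call was lost without KO 1, KO 2, KO 3, KO 4, WT 2, WT 3 or WT 5, each alone, at log2 fold changes of -0.18 to -0.15. It was also lost when only KO 3 and KO 4 stood for KO (-0.20) and with the epithelial covariate (-0.19). Ptgr2 exons share 1896 bases with the opposite-strand Gm47484. Slco2a1, the transporter that takes prostaglandins into cells, had a log2 fold change of 0.31 ± 0.10 (SE) and missed the threshold (adjusted p = 0.0512).

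Downstream of the receptors, 10 of 34 tested genes of G protein and cyclic AMP coupling were called lower and 1 higher. Over all tested genes 7.73% were called lower and 7.59% higher. The median log2 fold change of these 34 genes was -0.12. Gnas, the stimulatory G protein subunit, was 1.24-fold lower, with 1022 to 1128 CPM in KO libraries, against 1140 to 1408 CPM in WT libraries (adjusted p = 0.0110). Its exons share 1469 bases with Gm20721 and 988 with Nespas, both on the opposite strand. Pde4b, a phosphodiesterase that breaks down cyclic AMP, was 1.6-fold lower, with 32.4 to 54.8 CPM in KO libraries, against 64.0 to 70.7 CPM in WT libraries (adjusted p = 0.00230). Plcb4, a phospholipase C that acts below Gq, was 1.59-fold lower (adjusted p = 0.00733), and was not called when only KO 3 and KO 4 stood for KO, at a log2 fold change of -0.55. The other genes called lower were Adcy2, Adcy5, Adcy6, Plcb1, Pde4d, Arrb1 and Grk3, named here after their values were seen, as was Gnas. Their calls in other settings are not given here. For Adcy6, KO 1 to KO 4 had 48.5, 47.2, 49.3 and 47.7 CPM, inside the WT range of 46.8 to 63.4 CPM. Only KO 5 was below that range, at 39.1 CPM. Of the KO libraries only KO 3 was inside the WT range for Pde4d and Grk3, at 24.9 and 20.1 CPM. For Adcy2 only KO 2 was inside the WT range, at 22.6 CPM. For Adcy2, Adcy5, Plcb1, Arrb1 and Gnas, KO 3 and KO 4 were below all WT libraries. KO 5 was the lowest KO library for all of these genes but Adcy2 and Gnas. Gnai1, an inhibitory G protein subunit, was 1.82-fold higher (adjusted p = 0.0233), a call lost without KO 4, WT 3 or WT 5, each alone, at log2 fold changes of 0.73 to 0.86. It was also lost when only KO 3 and KO 4 stood for KO (1.02) and with the epithelial covariate (0.96).

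Of 13 tested genes that cyclic AMP is known to induce, 2 were called higher and 1 lower, with a median log2 fold change of 0.16. Atf3, a stress-induced transcription factor, was 2.00-fold higher, with 0.780 to 1.29 CPM in KO libraries, against 0.461 to 0.648 CPM in WT libraries (adjusted p = 0.00465). Fosl2, an AP-1 factor, was 1.22-fold higher (adjusted p = 0.0409), and Per1, a clock gene, was 1.57-fold lower (adjusted p = 0.0244). The Fosl2 call was lost without KO 1, KO 2, KO 5, WT 1, WT 2, WT 3 or WT 5, each alone, at log2 fold changes of 0.23 to 0.32. The Per1 call was lost without KO 1, KO 2, KO 5, WT 3, WT 4 or WT 5, each alone, at log2 fold changes of -0.64 to -0.57. Neither was called when only KO 3 and KO 4 stood for KO, at log2 fold changes of 0.16 and -0.38.

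The lipoxygenase and epoxide branches use the same arachidonic acid, and 3 of their 9 tested genes were called higher and 1 lower, with a median log2 fold change of 0.06. Cysltr1, a receptor for cysteinyl leukotrienes, was 1.86-fold lower, with 3.86 to 7.14 CPM in KO libraries, against 8.76 to 10.8 CPM in WT libraries (adjusted p = 0.00223). Lta4h, which makes leukotriene B, was 1.16-fold higher (adjusted p = 0.0200), a call lost without KO 1 or WT 3, at log2 fold changes of 0.21 and 0.19. It was also lost when only KO 3 and KO 4 stood for KO (0.20) and with the epithelial covariate (0.18). Alox12, a lipoxygenase, had 3.46, 0.569, 0.109, 0.859 and 4.36 CPM in KO 1 to KO 5, against 0.105 to 0.319 CPM in WT libraries. It was called (log2 fold change 3.22 ± 0.80 SE, adjusted p = 0.0195), but not when only KO 3 and KO 4 stood for KO (1.25) or with the epithelial covariate (0.55). The call was also lost without WT 5, at a log2 fold change of 3.14.

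Of 18 tested inducers and dampers of Ptgs2, 2 were called higher and 2 lower, with a median log2 fold change of 0.10. Il1rn, the natural antagonist of the interleukin 1 receptor, had 4.41, 1.20, 0.456, 0.617 and 2.32 CPM in KO 1 to KO 5, against 0.138 to 0.60 CPM in WT libraries (log2 fold change 2.41 ± 0.63 SE, adjusted p = 0.0234). It was highest in KO 1, KO 5 and KO 2, had a log2 fold change of 0.66 with KO 3 and KO 4 alone, and its call was lost there and without KO 1 (1.76), WT 2 (2.25), WT 3 (2.34) or WT 5 (2.19). Rela, a subunit of NF-kB, was 1.17-fold higher (adjusted p = 0.0344), and its call was lost without KO 1, KO 3, KO 4, KO 5, WT 2 or WT 3, each alone, at log2 fold changes of 0.18 to 0.23. Nr3c1, the glucocorticoid receptor, was 1.22-fold lower (adjusted p = 0.0419), and its call was lost without KO 1, KO 4, KO 5, WT 3, WT 4 or WT 5, each alone, at log2 fold changes of -0.31 to -0.24. Tnfaip3, which damps NF-kB signals, was 1.22-fold lower (adjusted p = 0.0460), and its call was lost without any KO library or without WT 2, WT 3 or WT 5, each alone, at log2 fold changes of -0.31 to -0.21. When only KO 3 and KO 4 stood for KO, all 4 of these calls were lost, at log2 fold changes of 0.66 for Il1rn, 0.29 for Rela, -0.32 for Nr3c1 and -0.27 for Tnfaip3.

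The genes whose pattern over the 10 libraries was most like that of each called gene were found by the root mean square difference of log2 CPM after centring each gene, with Gm and Rik names left out. For Ptger3 they were Stum at 0.153, Iigp1 at 0.197 and Sorcs3 at 0.229 log2 units, against a range of 2.55 for Ptger3 itself. For Ptgfr they were Fut2 at 0.180, Ret at 0.241 and Duoxa1 at 0.256, against a range of 2.12. For Ptgs1 they were B3galnt1 at 0.0279, Stc2 at 0.0542 and Gas5 at 0.0557, against a range of 0.489. For Ptgds they were Serpinb1b at 0.236, Rgs9 at 0.273 and AC122898.1 at 0.289, against a range of 1.77. With a prior count of 0.5 in place of 2 the third gene for Ptgfr was Slc6a2, at 0.259, in place of Duoxa1. On average Stum had 6.80 CPM in KO libraries and 20.9 CPM in WT libraries, and Ret had 34.3 CPM in KO libraries and 10.7 CPM in WT libraries. Serpinb1b and Rgs9 were scarce, at 0.352 and 0.539 CPM in KO libraries and 0.599 and 0.799 CPM in WT libraries. AC122898.1 was called, at a log2 fold change of -0.63, but that call was lost without any 1 library except KO 3. It was also lost when only KO 3 and KO 4 stood for KO (-0.37). The likeness was measured over both genotypes, so a difference between genotypes like that of the gene matched is part of how these genes were found.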

How the data were processed

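Polyadenylated RNA of 10 pooled samples was sequenced, and the authors deposited raw read counts per gene and library. Trimming tools (cutadapt 2.4 and Trim Galore 0.6.4), the aligner HISAT2 2.1.0, the build GRCm38.p6 and the counter featureCounts (Subread 1.6.4) are listed in the submitters' processing notes. The sources used here do not give the annotation release or how strand and multi-mapping reads were treated. Gene identifiers were matched to GENCODE vM21, and all 55450 were found.

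The test was edgeR 4.0.16 under R 4.3.3 (filterByExpr with minimum count 10 and total 15, TMM scaling, quasi-likelihood F test, Benjamini-Hochberg over 17729 genes, adjusted p under 0.05). It was tried on simulated data first. CPM use TMM-scaled library sizes, log2 CPM a prior count of 2, and TPM summed exon lengths. Alternatives included DESeq2 1.42.0, limma 3.58.1 (voom), other scalings and filters, marker covariates and leaving out libraries.

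Samples were grouped by labelled genotype. The enzymes, receptors and lists were chosen with earlier results of these data known. Named genes are the 10 enzymes and receptors, Slc4a11, up to 2 called genes with the smallest p in each direction of each list, and the 3 nearest genes of each called enzyme or receptor; others were added for their role. Gene levels hold counting error of whole reads, and replicate numbers did not pair the samples.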

Additional observations from a re-analysis of the deposited data

Results flagged for a closer look

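Of 94 sets of 5 libraries examined, 4 held a library whose gap to its nearest neighbour was over 0.71 of the whole range of the set (Dixon's 95% limit). Chance gives about 1 such set in 20. Ptger3 in KO 5 was 3.79 CPM, against 6.19 to 6.53 CPM in the other KO libraries. Ptgis in KO 4 was 187 CPM, against 159 to 165 CPM in the other KO libraries. Pla2g7 in WT 3 was 14.2 CPM, against 11.0 to 11.8 CPM in the other WT libraries. Stc2, the second nearest gene to Ptgs1, was 19.8 CPM in WT 3, against 22.2 to 23.1 CPM in the other WT libraries. Without the library that stood apart, Ptger3, Ptgis, Pla2g7 and Stc2 were each still called. The Stc2 call was lost without KO 1, KO 4, WT 2, WT 4 or WT 5, each alone, at log2 fold changes of -0.26 to -0.22.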

How the results depend on the processing

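Ptger3, Ptgfr and Ptges kept their side of the threshold and their direction in all 23 alternative settings, and Ptgs1 in all but the threshold of 0.01. Over all tested genes the count of 2716 calls became 1691 with a replicate block, 1294 with the epithelial covariate, 1105 when only KO 3 and KO 4 stood for KO, 1024 at an adjusted p under 0.01 and 595 with a log2 fold change of 1 or more in size. Of the enzymes and receptors, 4 were called, 2 at an adjusted p under 0.01 and 2 with that fold change. In place of 35 surrounding genes called, the counts were 22, 13, 15, 11 and 4 in the same order, and 18 to 37 when 1 library was left out. The replicate block is given for completeness, because same-numbered KO and WT libraries did not deviate together: the correlations of their deviations ran from -0.42 to 0.09. Leaving out 1 library moved Hpgd between -0.13 and 0.02 and Ptger1 between -0.08 and 0.36. The sign of Hpgd turned without KO 3 (0.00972) and WT 4 (0.0194), that of Ptger1 without KO 2 (-0.0176) and WT 2 (-0.0802), and that of Ptger4 with the epithelial covariate (-0.0587) and with KO 3 and KO 4 only (-0.0586), the cause of which was not tested. With total counts as the only scaling 59.6% of calls were higher, against 49.6%. Depth limits Ptger1, Ptger2 and Ptger4, with 0 to 54 reads a library.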
